A study of Homo sapiens with 17 samples.

Results

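The genes described here are 8 regulators and surface receptors that mark veins, lymphatic vessels and sinusoids: the transcription factors NR2F1, NR2F2 and PROX1, the membrane glycoprotein PDPN (podoplanin), and the receptors LYVE1, STAB1, STAB2 and MRC1. They were taken as a fixed list of symbols matched to Ensembl identifiers, with no threshold on a measured value. All 8 were found among the 58302 identifiers of the count tables, and 7 of them among the 28285 identifiers of the tables of sorted cells, where the identifier of MRC1 was not listed.

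RNA was sequenced in 17 libraries, all of cells derived from the established human embryonic stem cell line H1. The labels name the starting cells as GATA2+ endothelial cells derived in the Vc- or the Vc+ condition, that is without or with vitamin C, and the series design describes a GATA2/eGFP reporter. Vitamin C is a cofactor of dioxygenases that take methyl groups off histones and DNA, and the series title places the comparison in the study of how endothelium turns into blood. All groups share the H1 background and the selection for the reporter. The groups were sorted cells without and with vitamin C (2 libraries each), a course of re-plated cells in both conditions (10 libraries, 1 for each condition at 0, 24, 36, 48 and 60 h), and 3 libraries of Vc+ cultures, namely the adherent fraction at 60 h and the suspended fraction at 60 h and at 96 h. The labels describe the course after 0 h and the adherent cells as mixtures of endothelial and blood cells, and the suspended cells as blood cells. They tie vitamin C to how the endothelial cells were derived and do not say whether it was present after re-plating, and they do not say whether libraries came from separate cultures, so p-values measure the spread between these libraries, which may be technical.

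NR2F2, also called COUP-TFII, is an orphan nuclear receptor that gives venous endothelium its identity by holding back Notch signalling, and NR2F1 is its close relative. Lymphatic endothelium arises from venous endothelium when PROX1, a homeodomain factor, is switched on in cells that carry NR2F2 and SOX18. Lymphatic endothelial cells then display LYVE1, a receptor for hyaluronan, and PDPN, the ligand of the platelet receptor CLEC1B. STAB1, STAB2 and MRC1 are scavenger receptors of sinusoidal endothelium and of macrophages, and LYVE1 is also found on early embryonic endothelium with blood-forming potential, so no single member defines a cell type.

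By GENCODE release 29 on GRCh38, NR2F1 (ENSG00000175745) lies at chr5:93583224-93594615 on the plus strand and NR2F2 (ENSG00000185551) at chr15:96325938-96340263 on the plus strand. PROX1 (ENSG00000117707) lies at chr1:213983181-214041502 on the plus strand and PDPN (ENSG00000162493) at chr1:13583465-13617957 on the plus strand. LYVE1 (ENSG00000133800) lies at chr11:10556966-10611689 on the minus strand. STAB1 (ENSG00000010327) lies at chr3:52495338-52524495, STAB2 (ENSG00000136011) at chr12:103587273-103766727 and MRC1 (ENSG00000260314) at chr10:17809344-17911170, each on the plus strand.

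The 250 bases upstream of the RefSeq start on GRCh38.p14 are printed for 3 members with a window outside annotated exons: NR2F1, which rose after re-plating, and the related receptors STAB1 and STAB2, which stood at the highest and the lowest level of the set. They run 5′ to 3′ on the plus strand. The printed windows are chr5:93582972-93583221 for NR2F1, chr3:52495088-52495337 for STAB1 and chr12:103587023-103587272 for STAB2. Another NR2F1 window, chr5:93586849-93587098, and a PDPN window, chr1:13585210-13585459, also lay outside annotated exons and are not printed. Capitals mark matches, on either strand, to a TATA box, a CCAAT box or a GC box, whose letters follow the sequences.
NR2F1: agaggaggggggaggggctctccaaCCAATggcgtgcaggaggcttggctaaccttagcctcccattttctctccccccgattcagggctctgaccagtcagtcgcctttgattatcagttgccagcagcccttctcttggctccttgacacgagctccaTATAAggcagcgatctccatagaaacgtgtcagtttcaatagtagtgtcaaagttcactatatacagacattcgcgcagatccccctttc
STAB1: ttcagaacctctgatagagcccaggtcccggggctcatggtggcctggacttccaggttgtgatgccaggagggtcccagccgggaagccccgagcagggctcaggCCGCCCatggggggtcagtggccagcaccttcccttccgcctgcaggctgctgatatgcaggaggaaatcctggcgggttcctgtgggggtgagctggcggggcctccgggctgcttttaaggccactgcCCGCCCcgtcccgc
STAB2: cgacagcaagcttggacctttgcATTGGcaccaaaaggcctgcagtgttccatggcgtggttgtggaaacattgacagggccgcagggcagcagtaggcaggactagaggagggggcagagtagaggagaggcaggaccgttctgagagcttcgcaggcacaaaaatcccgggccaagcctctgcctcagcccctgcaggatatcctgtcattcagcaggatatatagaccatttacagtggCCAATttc
The NR2F1 window, with a GC content of 52.4%, held the TATA box letters TATAA 90 to 86 bases upstream of the start. It also held a match to CCAAT 225 to 221 bases upstream. That of STAB1, with a GC content of 67.6%, held the GC box GGGCGG on its other strand 144 to 139 and 14 to 9 bases upstream. In the STAB2 window, with a GC content of 55.6%, the CCAAT box lay 8 to 4 bases upstream and, on the other strand, 227 to 223 bases upstream. Among 35116 RefSeq windows of the same length, the TATA box was found in 18.9%, the CCAAT box in 32% and the GC box in 42.6% on either strand, and the median GC content was 58%. A nuclear receptor half-site, searched as AGGTCA on both strands, was found in 12.1% of all windows. The letters AGATAA, which GATA factors can bind, were found in 9.17%. For the Notch effector RBPJ the letters searched were TGGGAA, which 20.8% of windows held. None of the last 3 motifs was found in the windows printed here. These matches describe the letters only, and the marked matches do not overlap each other.

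The 13 count libraries held 6214675 to 11058345 counts over genes, so 1 count stood for 0.0904 to 0.161 CPM. CPM is the usual per-million scaling of counts by the library total. Intervals below are exact Poisson intervals at 95%, and they cover counting error only. The summed level of 11 blood markers was 173 to 287 CPM in the course without vitamin C, highest at 0 h. With vitamin C it was 244 to 621 CPM, highest at 60 h. Both conditions stood at 287 CPM at 0 h. Markers of the cell types that carry these genes were present in part. Of 14 genes of lymphatic endothelium and its ligands, 2 to 4 were at 0 in each library of the course, with TFF3 at 0 in all 13 libraries, CCL21 above 0 in 1 and the receptor FLT4 at 240.1 to 509 CPM in the course. Of 15 sinusoidal genes, 4 to 7 were at 0 in each library of the course, and their summed level was 577 to 1182 CPM. CLEC4G and FCN2 were at 0 in all 13 libraries, whereas FCN3 stood at 143 to 660.2 CPM, OIT3 at 61.9 to 398 CPM and CRHBP at 21.6 to 510.3 CPM in the course. Of 15 macrophage and monocyte markers, 6 to 12 were at 0 in each library of the course, AIF1, C1QA, C1QB and MARCO in all 13. In the course FCER1G stood at 12.5 to 22.3 CPM, LYZ at 6.46 to 18.6 CPM and CD33 at 2.93 to 17.3 CPM. AIF1 stood at 13.9 to 42.5 TPM in the 4 sorted libraries. The sinusoidal gene SCARF1 stood at 96.9 to 122 TPM there and at 0 to 0.493 CPM in the 13 count libraries. The reason for this gap was not tested, so a 0 in the count libraries may not mean absent RNA. The endothelial cadherin CDH5 stood at 635 to 1148 CPM throughout the course. These are bulk libraries, in which fewer cells of a type and less RNA per cell cannot be told apart.

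The 8 genes covered a wide span of levels. Levels can be compared between genes only per length, so counts were also divided by exonic length and scaled the same way (TPM). On that scale the median over the 13 count libraries was 140 for STAB1 (range 4.10 to 220) and 86.3 for MRC1 (range 0.576 to 143). The medians of the others were 5.91 for NR2F1 (range 0.0578 to 20.8), 2.40 for LYVE1 (range 0 to 9.04), 2.27 for NR2F2 (range 0 to 7.29), 0.999 for PROX1 (range 0.426 to 8.08), 0.141 for PDPN (range 0 to 6.18) and 0.0499 for STAB2 (range 0 to 0.949). Each gene's range overlapped that of its neighbours in this order. Within the 10 libraries of the course alone, every library had STAB1 and MRC1 above the other 6 members. Overlapping annotation limits 5 members, since how shared stretches and strands were counted is not given in the sources used here. NR2F1-AS1 shares 158 exonic bases with NR2F1 and had 408 counts over the 13 libraries, PROX1-AS1 shares 171 with PROX1 and had 15 counts, NT5DC2 shares 111 with STAB1 and had 19706 counts, and MRVI1, which has no exonic base in common with LYVE1 but spans part of the same stretch on the same strand, had 1134 counts. An antisense RNA, AC025265.1, shares 160 exonic bases with STAB2 and had 23 counts. NR2F1 and NR2F2 are close relatives, and how reads that match both were assigned is not given either.

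**Figure D1:**
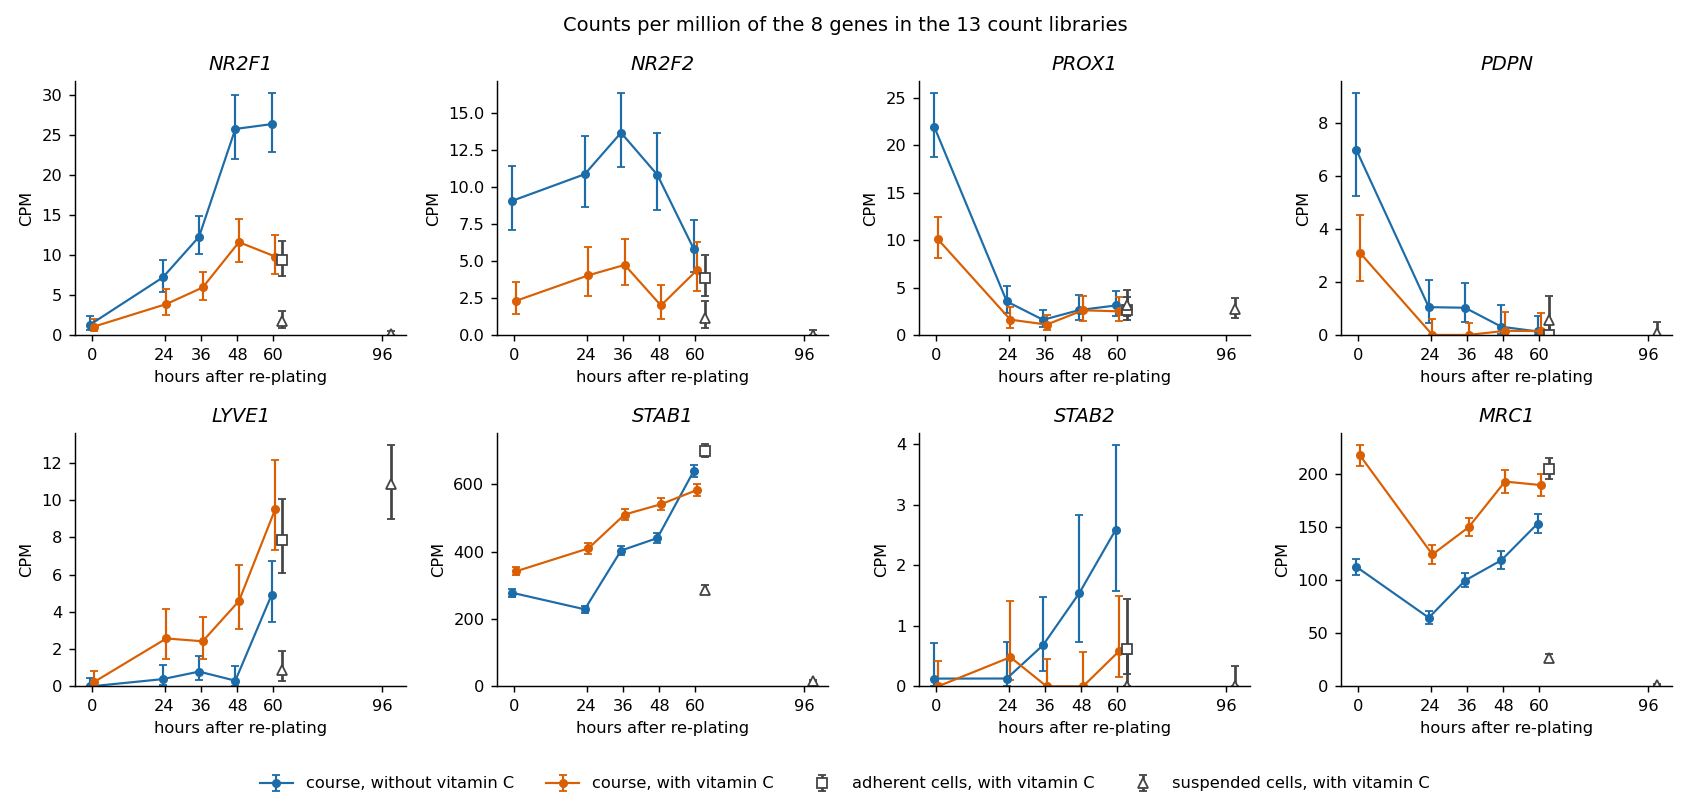
Level of each of the 8 genes in CPM of the library total (vertical axes, linear, each gene with its own scale) against hours after re-plating, for the course without (blue) and with (orange) vitamin C, adherent cells (squares) and suspended cells (triangles), 1 library per point with its exact 95% Poisson interval. NR2F1 climbed to 26.4 CPM without vitamin C and 11.6 CPM with it, PROX1 and PDPN stood highest at 0 h, and LYVE1 reached 10.9 CPM in suspended cells at 96 h.

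Over the course, vitamin C went with lower RNA of both NR2F factors and with higher RNA of LYVE1 and MRC1. In edgeR's quasi-likelihood test with time as a factor and Benjamini-Hochberg adjustment over 16276 genes, 4 of the 8 members were called at an adjusted p under 0.05, beside 5.87% of all genes tested (2.5% higher and 3.37% lower). NR2F1 and NR2F2 were lower with vitamin C and LYVE1 and MRC1 were higher. Without a term for time none of these 4 was called (adjusted p of 0.133 to 0.999). Since each condition and time had 1 library, the 5 times serve as repeats in this test and the p-values say nothing about variation between cultures.

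NR2F2 stood at 9.05, 10.8, 13.6, 10.8 and 5.82 CPM at 0, 24, 36, 48 and 60 h without vitamin C. With vitamin C it stood at 2.30, 4.02, 4.72, 1.99 and 4.39 CPM at the same times. All 5 libraries with vitamin C were below all 5 without it, a separation in that direction that 0.823% of the genes tested showed. At 60 h the pair lay close together, with overlapping intervals of 4.24 to 7.79 CPM without and 2.96 to 6.27 CPM with vitamin C. The fitted log2 difference was -1.53 ± 0.26 (SE, edgeR adjusted p = 0.00430).

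NR2F1 stood at 1.29, 7.19, 12.3, 25.8 and 26.4 CPM without vitamin C. With vitamin C it stood at 1.03, 3.86, 5.94, 11.6 and 9.81 CPM. The libraries with vitamin C were lower at all 5 times, as they were for 8.5% of the genes tested, and the ranges of the conditions overlapped, both starting near 1 CPM. The log2 difference was -1.09 ± 0.18 (SE, edgeR adjusted p = 0.00326). Its antisense neighbour NR2F1-AS1 went from 0.388 to 12.7 CPM between 0 and 60 h without vitamin C and from 1.03 to 4.83 CPM with it, and its vitamin C difference was not called (log2 -0.70 ± 0.31 SE, adjusted p = 0.241).

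PROX1, the lymphatic factor, was highest at 0 h in both conditions. It stood at 22.0 CPM at 0 h without vitamin C and at 3.53, 1.59, 2.62 and 3.10 CPM at 24, 36, 48 and 60 h. With vitamin C the values were 10.1 CPM at 0 h and then 1.61, 1.09, 2.60 and 2.49 CPM. PROX1 was lower with vitamin C at 5 of 5 times, as were 8.5% of the genes tested. Its log2 ratio (0.5 CPM added) was -1.08 at 0 h and -0.01 at 48 h. The vitamin C difference was not called (log2 -0.69 ± 0.26 SE, edgeR adjusted p = 0.157).

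PDPN was low apart from the 0 h libraries. Without vitamin C it stood at 6.98, 1.05, 1.02, 0.309 and 0.129 CPM. With vitamin C it stood at 3.10, 0, 0, 0.153 and 0.146 CPM. The exact intervals of the 0 counts at 24 and 36 h reach up to 0.594 and 0.447 CPM. The vitamin C difference was not called (log2 -1.84 ± 0.67 SE, edgeR adjusted p = 0.145) but was with no filter on low counts (-1.85 ± 0.59 SE, adjusted p = 0.0370), and every library from 24 h on held at most 9 counts of this gene.

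LYVE1 had no count at 0 h without vitamin C and then stood at 0.392, 0.796, 0.309 and 4.91 CPM at 24, 36, 48 and 60 h. With vitamin C it stood at 0.230, 2.57, 2.42, 4.58 and 9.51 CPM. LYVE1 was higher with vitamin C at all 5 times, as were 9.19% of the genes tested, and the 2 conditions overlapped, the 60 h library without vitamin C lying above the earlier ones with it. The log2 difference was 1.94 ± 0.46 (SE, edgeR adjusted p = 0.0260). The calls of NR2F1, NR2F2 and MRC1 held without each single library, whereas that of LYVE1 was lost when any of the 24, 36 or 48 h libraries was left out, with adjusted p-values of 0.0689 to 0.109 for those 6 fits.

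MRC1 stood at 113, 64.7, 99.7, 119 and 153 CPM without vitamin C. With vitamin C it stood at 218, 124, 150.0, 193 and 190 CPM. MRC1 was higher with vitamin C at 5 of 5 times, as were 9.19% of the genes tested, and the ranges of the conditions overlapped. The log2 difference was 0.69 ± 0.09 (SE, edgeR adjusted p = 0.00109), and the log2 ratio with 0.5 CPM added was 0.95 at 0 h and 0.30 at 60 h. Macrophages also carry MRC1, and of 15 macrophage and monocyte markers 2 of the 5 tested were higher with vitamin C, CD33 (log2 1.44 ± 0.26 SE) and TYROBP (log2 3.98 ± 0.79 SE). Their summed level was 28.8 to 37.6 CPM without and 37.0 to 53.3 CPM with vitamin C, and the part of such cells in the MRC1 difference was not tested.

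STAB1 was the most abundant member, at 278, 229, 403, 440.1 and 638 CPM without vitamin C. With vitamin C it stood at 341, 410, 510.0, 540 and 583 CPM. It was higher with vitamin C at 4 of 5 times and lower at 60 h, and the difference was not called (log2 0.32 ± 0.10 SE, edgeR adjusted p = 0.0998). Without either 60 h library it was called (log2 0.44 ± 0.09 SE for each, adjusted p = 0.0154 and 0.0148), and so it was with no filter on low counts (log2 0.32 ± 0.06 SE, adjusted p = 3.67e-05).

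STAB2 stood at 0.129, 0.131, 0.682, 1.54 and 2.59 CPM without vitamin C. With vitamin C it had 0, 0.483, 0, 0 and 0.585 CPM. The difference was not called (log2 -2.18 ± 0.88 SE, edgeR adjusted p = 0.195). At 60 h the exact intervals, 1.58 to 3.99 CPM without and 0.160 to 1.50 CPM with vitamin C, did not overlap. They rest on 20 and 4 counts in 1 library each, at 1 of the 5 times, and cover counting error only. How many of all genes tested separate this way was not counted. STAB2 was higher with vitamin C at 1 of 5 times, and its relative STAB1 at 4 of 5.

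Markers of other cells moved with the condition beside these genes. Of 6 epithelial markers, 3 were called lower with vitamin C, the keratins KRT8, KRT18 and KRT19, and none was called higher. The others were not called, at log2 0.75 ± 0.43 (SE) for EPCAM, 0.15 ± 0.53 for CDH1 and -0.56 ± 0.66 for CLDN4. The summed level of the 6 markers, most of it from KRT8 and KRT18, was 1058 to 1172 CPM without and 487 to 524 CPM with vitamin C. Of 11 mesenchymal and smooth muscle markers, 6 of the 10 tested were lower with vitamin C, among them TAGLN and COL1A1, and their summed level was 1005 to 2186 CPM without and 593 to 2347 CPM with it. Blood markers were higher for 5 of 10 tested, among them SPI1 (log2 3.25 ± 0.27 SE) and SPN (log2 2.44 ± 0.29 SE). The part of these cell types in the differences of NR2F1, NR2F2 and LYVE1 was not tested.

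**Figure D2:**
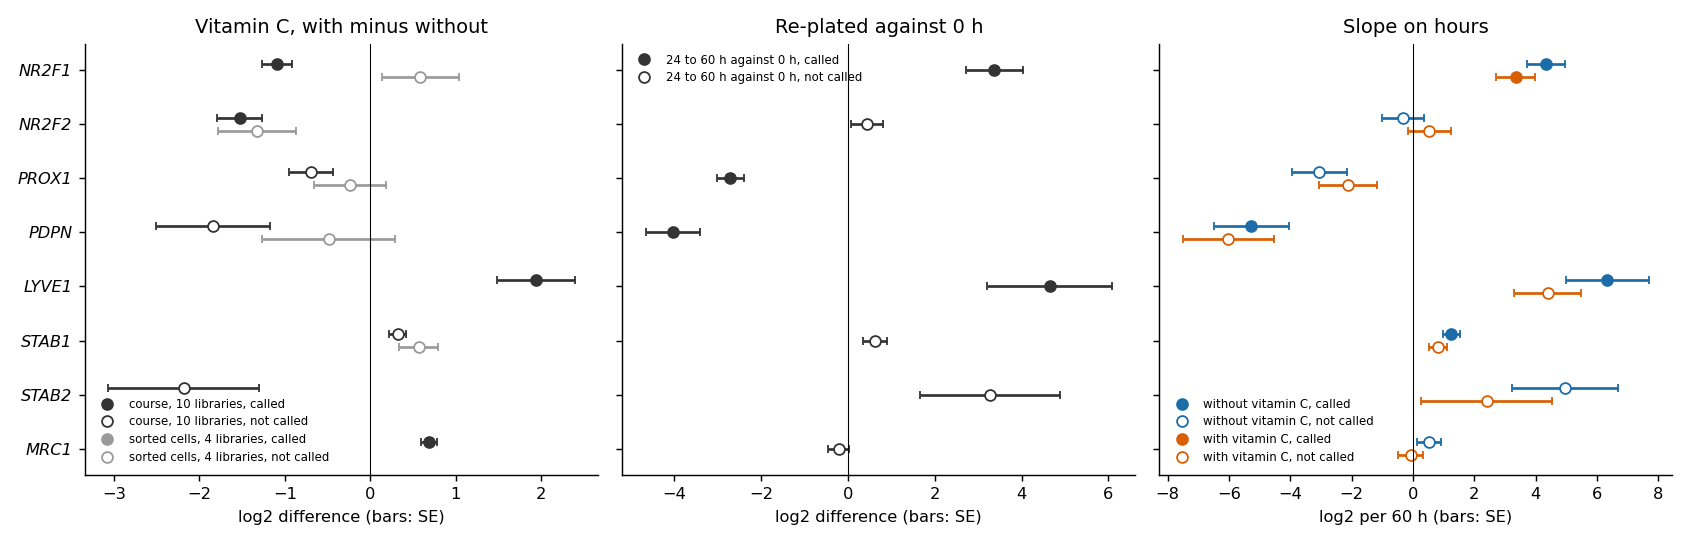
Fitted log2 differences or slopes of the 8 genes (horizontal axes, bars are SE) for vitamin C (left, course in black and sorted cells in grey), for 24 to 60 h against 0 h (middle) and for 60 h of a straight line without and with vitamin C (right), with filled points for genes called at an adjusted p under 0.05. NR2F1 at -1.09 and NR2F2 at -1.53 were called lower with vitamin C, while PROX1 at -2.71 and PDPN at -4.03 were called lower after re-plating.

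Re-plating was followed by opposite movements within the set. The 8 libraries from 24 to 60 h were compared with the 2 at 0 h in edgeR with vitamin C as a covariate, which called 20.5% of all genes tested (9.65% higher, 10.9% lower) and 4 of the 8 members. PROX1 fell (log2 -2.71 ± 0.31 SE, adjusted p = 0.000144) and PDPN fell (log2 -4.03 ± 0.63 SE, adjusted p = 0.00114). NR2F1 rose (log2 3.37 ± 0.66 SE, adjusted p = 0.00444) and LYVE1 rose (log2 4.65 ± 1.44 SE, adjusted p = 0.0406). PDPN passed the low-count filter through the 0 h libraries, and NR2F1 and LYVE1 through later ones, each where its level was higher. With no filter on low counts the calls of PDPN, NR2F1 and LYVE1 were kept. Over both conditions, the lowest 0 h value of PROX1, 10.1 CPM, was above the highest later value, 3.53 CPM. How many of all genes tested separate this way was not counted.

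The other 4 members were not called in that comparison. The log2 differences were 0.43 ± 0.37 (SE) for NR2F2, 0.62 ± 0.28 for STAB1, 3.27 ± 1.61 for STAB2 and -0.22 ± 0.25 for MRC1. This comparison rests on 2 libraries at 0 h: without the one lacking vitamin C, 894 genes and 2 members (PROX1 and PDPN) were called, and LYVE1 was also lost without the 0 h or the 48 h library with vitamin C (adjusted p = 0.222 and 0.0574). STAB1 was called without the 24 h library lacking vitamin C (log2 0.73 ± 0.18 SE, adjusted p = 0.0169).

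Markers of other cells moved with re-plating too. Of 6 cardiac markers, 4 of the 5 tested fell, among them TBX5 (log2 -5.63 ± 0.61 SE) and HAND1 (-2.92 ± 0.26 SE), and their summed level was 184 and 105 CPM at 0 h without and with vitamin C and 33.1 to 54.1 CPM later. Mesenchymal and smooth muscle markers fell for 4 of 10 tested, among them COL1A2 (-3.01 ± 0.27 SE) and PDGFRA (-2.63 ± 0.52 SE), with a summed level of 2186 and 2347 CPM at 0 h and 593 to 1772 CPM later. Of the 6 epithelial markers 3 fell, among them CDH1 (-3.12 ± 0.54 SE), and KRT18 rose, with a summed level of 498 to 1094 CPM at 0 h and 487 to 1172 CPM later. None of the 10 blood and 5 macrophage and monocyte markers tested was called. The part of these cell types in the falls of PROX1 and PDPN and the rises of NR2F1 and LYVE1 was not tested.

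Trends over the course were fitted as a straight line in hours for each condition, scaled to 60 h. With vitamin C, 1.78% of genes had a called slope, and of the members NR2F1 alone rose (log2 3.36 ± 0.63 SE per 60 h, adjusted p = 0.0334), beside 0.915% of genes called higher and 0.86% called lower. Leaving out any of 7 libraries or the 0 h pair ended that call, with an adjusted p of 0.0524 to 0.353 without single libraries and of 0.0549 without the pair, as did ranks of the times (0.137). The slopes of LYVE1 (4.40 ± 1.09 SE, adjusted p = 0.0839) and PDPN (-6.02 ± 1.49 SE, adjusted p = 0.0837) were not called, but both were with no filter on low counts (adjusted p = 0.0446 and 0.0447) and in DESeq2 (0.00681 and 0.0374), and LYVE1 also was without the 0 h library lacking vitamin C (0.0417).

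Without vitamin C, 4.28% of genes had a called slope, and 4 members were among them (2.15% of genes called higher, 2.13% lower). NR2F1 (4.35 ± 0.62 SE per 60 h, adjusted p = 0.00695), LYVE1 (6.34 ± 1.36 SE, adjusted p = 0.0319) and STAB1 (1.26 ± 0.28 SE, adjusted p = 0.0381) rose, and PDPN fell (-5.27 ± 1.22 SE, adjusted p = 0.0418). As above, PDPN passed the low-count filter through the 0 h libraries, and NR2F1 and LYVE1 through later ones. The slope of LYVE1 was 3.35 ± 2.13 (SE, adjusted p = 0.473) and that of STAB1 0.95 ± 0.35 (SE, adjusted p = 0.218) without the 60 h library lacking vitamin C, which held the highest value of both in that condition. LYVE1, STAB1 and PDPN each lost the call in 6 of the 10 fits without a single library (adjusted p of 0.0522 to 0.473, 0.0539 to 0.218 and 0.0552 to 0.436), and NR2F1 lost it without the 0 h library lacking vitamin C (0.0805). Ranks of the times also ended the calls of LYVE1 (0.0625) and PDPN (0.0877). PROX1 had a slope of -3.06 ± 0.90 (SE, adjusted p = 0.0906), which was called with no filter on low counts (adjusted p = 0.0420) and without the 0 h library with vitamin C (0.0329), and within the libraries from 24 to 60 h its slope was -0.05 ± 1.12 (SE, adjusted p = 0.984). For MRC1, the slope from 24 h on was called in both conditions, at 1.97 ± 0.29 (SE, adjusted p = 0.000436) without and 1.04 ± 0.28 (SE, adjusted p = 0.0286) with vitamin C, whereas over all times it was 0.53 ± 0.40 and -0.07 ± 0.40 (SE) and not called.

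The slopes of the 2 conditions were not shown to differ. The interaction was called for 0 of 16276 genes in edgeR, with 473 at an unadjusted p under 0.05, and for 11 genes in DESeq2, with no member among them. For NR2F1 the difference in slope was -1.0 ± 0.90 (SE, adjusted p = 1). These comparisons share the same 10 libraries and are not independent of each other.

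The sorted cells were read directly, in TPM as deposited, and the vitamin C contrast there has 2 libraries on each side. In limma on log2(TPM + 1), which understates changes of low genes, 0 of 14421 genes were called (0%), with 313 at an unadjusted p under 0.05. Of the members, 5 passed the filter of at least 1 TPM in 2 libraries, LYVE1 and STAB2 did not, and MRC1 was not listed. Titles and descriptions disagree on the condition of 2 of the 4 libraries. By the descriptions, libraries with the same replicate number share a condition. The titles were used here, and the descriptions turned the sign for NR2F1 (log2 -0.40), NR2F2 (0.48) and PDPN (1.60) and called 156 genes, none of them a member.

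NR2F2 stood at 4.22 and 6.85 TPM in replicates 1 and 2 without vitamin C and at 1.24 and 1.91 TPM with it. The groups did not overlap, as in 19.3% of the genes tested in that direction, and the log2 difference was -1.33 ± 0.45 (SE, limma unadjusted p = 0.029, adjusted p = 0.99983). NR2F1 stood at 0.89 and 0.48 TPM in Vc- cells against 1.93 and 1.16 TPM in Vc+ cells, so that here the libraries with vitamin C were higher, again without overlap (9.09% of genes in that direction, log2 0.59 ± 0.46 SE, adjusted p = 0.99983). Only its Vc+ libraries reached the 1 TPM of the filter. NR2F1 thus entered the test through the group where it was high, and its separation cannot serve as support for a difference. STAB1 stood at 126 and 138 TPM in Vc- cells against 189 and 203 TPM in Vc+ cells, higher without overlap as well (log2 0.57 ± 0.23 SE, limma unadjusted p = 0.0493, adjusted p = 0.99983).

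PDPN differed more between replicate numbers than between the conditions of the titles. It stood at 3.37 and 12.6 TPM in replicates 1 and 2 of the Vc- cells. In those of the Vc+ cells it stood at 2.22 and 8.42 TPM. By the descriptions the split by replicate number is the split by condition, so these cannot be told apart for PDPN. PROX1 stood at 3.12 and 2.33 TPM in Vc- cells against 2.36 and 1.94 TPM in Vc+ cells, and these overlapped. LYVE1 was listed at 0.61 and 0.06 TPM in Vc- cells against 1.03 and 0.06 TPM in Vc+ cells, and STAB2 was above 0 in 1 library, at 0.15 TPM. The sorted tables carry no counts, so the depth behind these values is unknown.

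**Figure D3:**
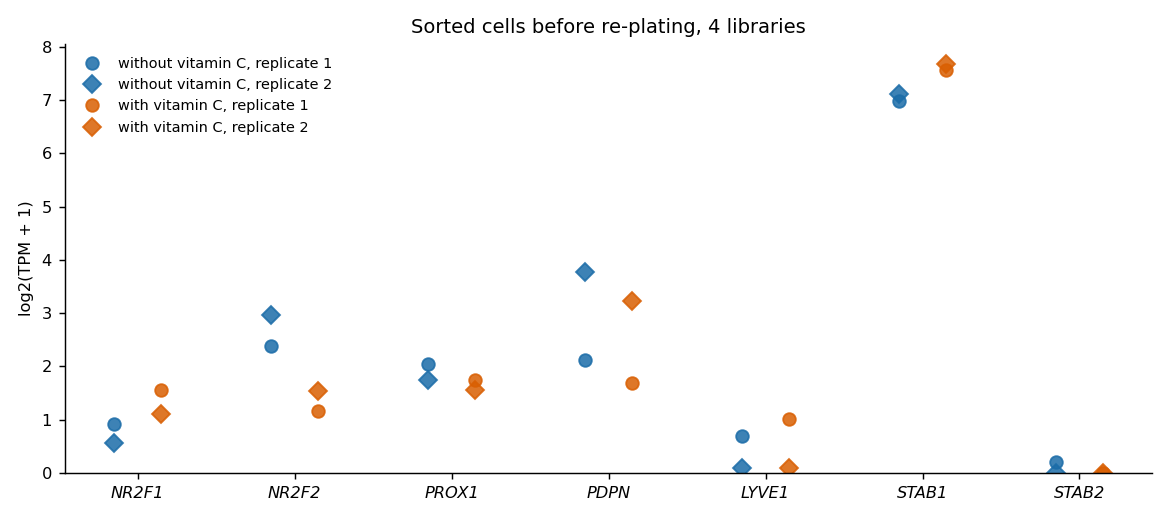
Level of the 7 listed genes as log2(TPM + 1) (vertical axis) in the 4 libraries of sorted cells, without (blue) and with (orange) vitamin C, replicate 1 as circles and replicate 2 as diamonds. Conditions are those of the titles. The 2 values of NR2F2 without vitamin C, 4.22 and 6.85 TPM, lie above both with it. Those of PDPN lie apart by replicate number, which by the descriptions is also the condition.

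Suspended cells, which the labels call blood cells, had less RNA of most members than the cells that stayed attached. One library stands for each group, so no test was made, and folds are given with exact intervals that cover counting error only. Of the 6 members with at least 1 CPM in either library, 5 were at least 2-fold lower in the suspended library at 60 h (0.5 CPM added to both), beside 15.7% of 16562 genes. LYVE1 was at 7.88 CPM in adherent and 0.862 CPM in suspended cells, 9.14-fold lower (interval 3.98 to 25.8). MRC1 was at 205 and 26.3 CPM, 7.79-fold lower (interval 6.68 to 9.12). STAB1 was at 700 and 287 CPM, 2.44-fold lower (interval 2.32 to 2.57).

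NR2F1 was at 9.36 CPM in adherent and 1.72 CPM in suspended cells, 5.43-fold lower (interval 2.93 to 11.0). NR2F2 was at 3.82 and 1.15 CPM, 3.32-fold lower (interval 1.49 to 8.36). Both nuclear receptors lay on the same side as the scavenger receptors. PROX1 was at 2.59 and 3.16 CPM, from 21 and 22 counts, and the interval of its fold, adherent over suspended, ran from 0.428 to 1.56. STAB2 had 5 counts in adherent cells and none in suspended cells, and PDPN had none in adherent and 4 in suspended cells, too few to set a difference at this depth. The pan-endothelial list moved the same way, with 10 of 10 genes at least 2-fold lower (median log2 ratio -2.47, against 0.13 over all genes) and CDH5 at 1347 CPM in adherent and 194 CPM in suspended cells. The median log2 ratio of the 6 members with at least 1 CPM in either library was -1.77.

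Between 60 and 96 h in suspension, LYVE1 parted from the other receptors. LYVE1 was at 0.862 CPM (6 counts) at 60 h and 10.9 CPM (120 counts) at 96 h, 12.6-fold higher (interval 5.61 to 35.0), beside 7.15% of 16303 genes at least 2-fold higher. STAB1 was at 287 and 15.7 CPM, 18.2-fold lower (interval 15.6 to 21.4), and MRC1 at 26.3 and 1.09 CPM, 24.2-fold lower (interval 13.5 to 47.8). The 96 h library held the highest LYVE1 value and the lowest STAB1 and MRC1 values of all 13 count libraries, although the counting interval of its LYVE1 level overlapped that of the 60 h course library with vitamin C (7.34 to 12.1 CPM). MRVI1, whose span overlaps LYVE1 on the same strand without shared exonic bases, was at 6.61 CPM at 60 h and 48.2 CPM at 96 h, the highest of the 13 libraries, and the part of its reads in the LYVE1 count was not tested.

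The transcription factors also differed among themselves between 60 and 96 h. NR2F1 had 12 counts at 60 h and 1 count at 96 h, a 19.1-fold lower level with an interval of 2.82 to 815. NR2F2 had 8 counts and then none, which makes it at least 2.71-fold lower, the nearer end of the exact interval. PROX1 was at 3.16 CPM at 60 h and 2.71 CPM at 96 h, and the interval of its fold, 96 over 60 h, was 0.479 to 1.56. In all, 4 of 6 members with at least 1 CPM in either library were at least 2-fold lower, beside 13.4% of genes, and 6 of 10 pan-endothelial genes were at least 2-fold lower and 1 higher, with CDH5 at 4.25 CPM at 96 h.

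Blood and macrophage markers with at least 1 CPM were higher in suspension than in adherent cells. SPN, the leukocyte sialophorin CD43, was at 8.13 CPM in adherent cells, 264 CPM in suspended cells at 60 h and 495 CPM at 96 h. The receptor CSF1R was at 2.22, 15.5 and 56.3 CPM and the adaptor TYROBP at 0.739, 18.3 and 28.9 CPM, and all 5 macrophage and monocyte markers with at least 1 CPM were at least 2-fold higher in the suspended fraction at 60 h, beside 14.3% of all genes. The summed level of the 15 macrophage and monocyte markers was 33.6 CPM in adherent cells and 199 and 342 CPM in suspended cells. Of the 15, 8 were at 0 in adherent cells and 8 and 5 in suspended cells. AIF1, CD14, C1QA, C1QB and MARCO were among them in all 3 libraries. Between 60 and 96 h in suspension, 6 of 11 blood markers were at least 2-fold higher and 0 at least 2-fold lower. RUNX1 went from 502 to 289 CPM and MYB from 231 to 122 CPM. Of 6 macrophage and monocyte markers with at least 1 CPM, 3 were at least 2-fold higher at 96 h. CD33 was at least 2-fold lower, at 70.4 and 20.5 CPM. FCER1G was highest in suspended cells at 96 h, at 186 CPM. The part of such cells in the LYVE1 value at 96 h was not tested.

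**Figure D4:**
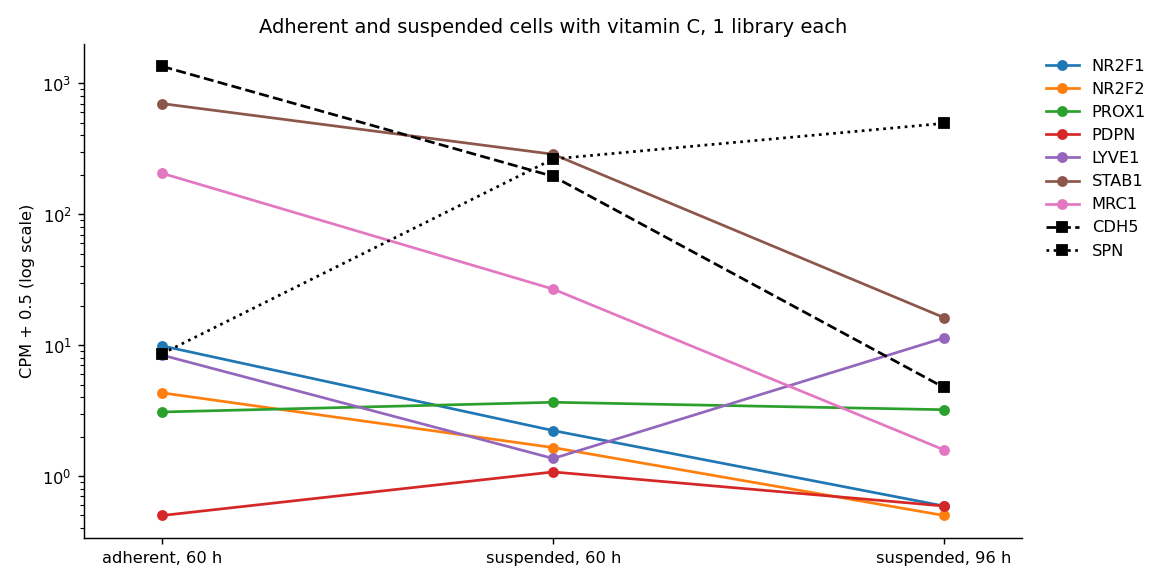
Level in CPM with 0.5 CPM added (vertical axis, log scale) in the adherent fraction at 60 h and the suspended fraction at 60 and 96 h, 1 library each, for 7 of the genes and for the endothelial marker CDH5 (dashed) and the blood marker SPN (dotted); STAB2 is left out because it had no count in either suspended library. LYVE1 went down to 0.862 CPM and up to 10.9 CPM, PROX1 stayed between 2.59 and 3.16 CPM, and STAB1, MRC1 and CDH5 went down at each step.

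The gene lists around this set gave no common venous or lymphatic direction with vitamin C. Of 8 venous genes, 7 were tested and 1 was called, APLNR, the receptor of apelin, which was higher with vitamin C (log2 0.75 ± 0.14 SE, edgeR adjusted p = 0.00870). The median of the tested venous genes was 0.06, beside 0.01 over all genes. Of 14 genes of lymphatic endothelium and its ligands, 10 were tested and 1 was lower, ANGPT2, a ligand of the receptor TEK (log2 -0.98 ± 0.23 SE, adjusted p = 0.0248). Sinusoidal scavenger genes were higher for 4 of 8 tested, among them OIT3 (1.10 ± 0.12 SE), GPR182 (3.80 ± 0.45 SE) and CRHBP (1.3 ± 0.16 SE), and lower for GATA4 (-0.95 ± 0.08 SE), with a median of 0.73. Of 14 arterial genes tested, 4 were higher, among them JAG2 and SOX17, and 2 were lower, JAG1 and GJA5, which encode a Notch ligand and a connexin.

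After re-plating, venous genes divided and arterial genes mostly rose. FLRT2 (log2 -1.63 ± 0.19 SE), NRP2 (-2.04 ± 0.26) and APLNR (-2.01 ± 0.40) fell in edgeR, and 2 venous genes rose, among them NT5E (1.12 ± 0.30 SE). Arterial genes rose for 9 of 14 tested, among them IGFBP3 (2.52 ± 0.29 SE) and the Notch ligand DLL4 (1.87 ± 0.30 SE), and 1 fell. Of 10 lymphatic genes tested, 3 rose, among them ANGPT2 (5.22 ± 0.68 SE) and the PROX1 regulator SOX18 (1.24 ± 0.19 SE), and 3 fell, among them ADAMTS3 (-1.44 ± 0.14 SE), a protease that matures VEGFC. Of 8 sinusoidal genes tested, 2 rose, among them FCN3 (1.65 ± 0.38 SE), and 4 fell, among them CRHBP (-2.89 ± 0.21 SE) and CLEC1B (-1.88 ± 0.37 SE). VEGFC, the main ligand of lymphatic growth, rose with hours in both conditions (6.64 ± 1.10 SE per 60 h without and 8.97 ± 1.42 SE with vitamin C), from 0.517 to 24.1 CPM and from 0.115 to 13.8 CPM.

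**Figure D5:**
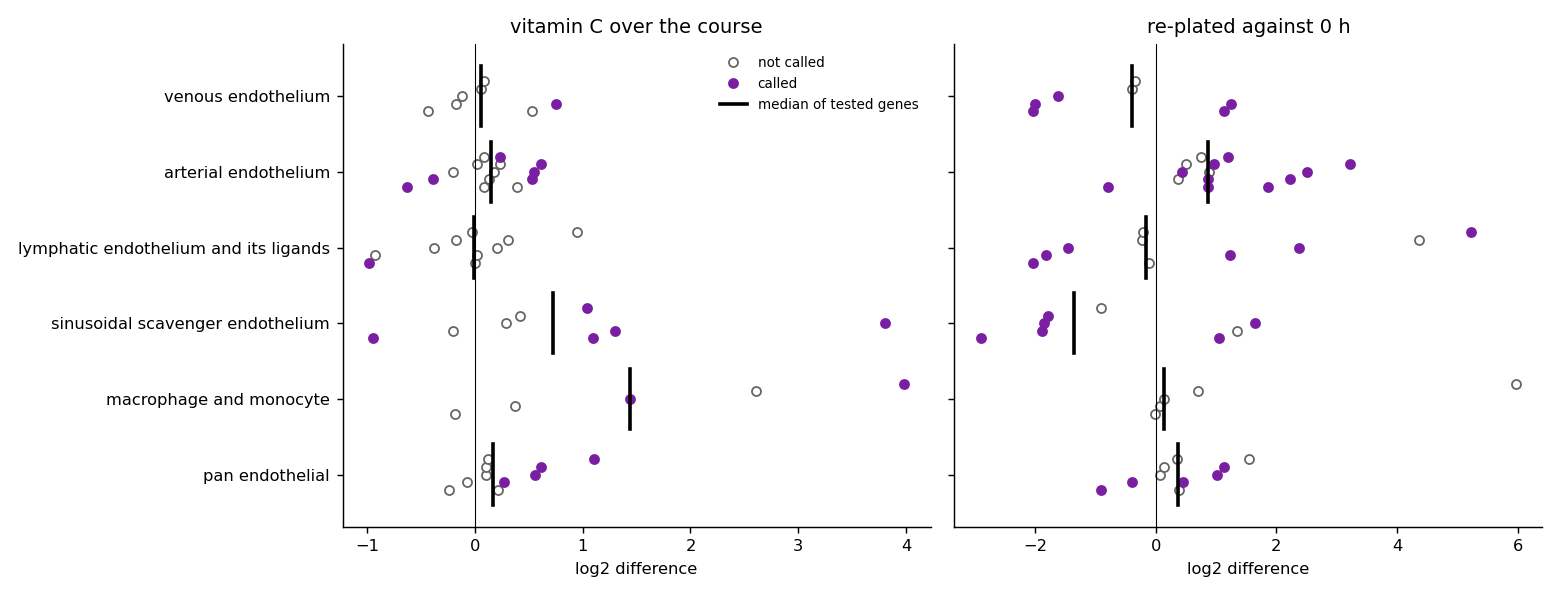
Log2 differences of the tested genes of 6 lists (horizontal axes, 1 point per gene, filled where called at an adjusted p under 0.05 in edgeR, black bars for the list medians) for vitamin C over the course (left) and for 24 to 60 h against 0 h (right). Venous and lymphatic genes spread on both sides of 0 in both comparisons, and 9 of 14 arterial genes were called higher after re-plating.

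Genes with levels most like those of a member were found by Pearson r of log2(CPM + 0.5) over the 13 count libraries, among 9612 or 9613 genes reaching 20 CPM. This is a description only, since the libraries share a time axis and include the adherent and suspended fractions beside the course. How far the suspended libraries set these values was not tested. Among the genes most like NR2F1 were NACC2 (r = 0.990) and FZD8 (0.976). Those most like NR2F2 were KRT18 and SLC41A1 (0.955 each) and KRT8 (0.941). For STAB1 they were FCN3 (0.973), RPS6KA2 (0.971) and LAPTM4B (0.971), and for MRC1 they were IGFBP4 (0.989), GPR37 (0.988) and GNA14 (0.987).

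PROX1 was most like FXR1 (0.918), GPC2 (0.916) and MYOCD (0.914), and PDPN most like SSBP3 (0.940), HGF (0.934) and COL9A3 (0.933). LYVE1 had the lowest top values, with GNPTG (0.913) and the interferon-induced genes IFIT1 (0.881) and MX1 (0.879). Among the members themselves, the pairs with the highest r were STAB1 with MRC1 (0.947) and PROX1 with PDPN (0.877), and LYVE1 with PDPN had the lowest (-0.781). NR2F1 and NR2F2 had an r of 0.663, and PROX1 with NR2F2 of 0.052.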

How the data were processed

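RNA of 17 libraries was measured by RNA sequencing, per the labels with an Illumina TruSeq kit from 1 µg of total RNA taken with Trizol. For the 13 libraries of re-plated cells the authors deposited raw counts for 58302 Ensembl identifiers, 58039 of them in GENCODE release 29 (GRCh38), which gave names, positions and exonic lengths. The 4 deposited tables of sorted cells were read as TPM made by the authors: no unit is named, they sum to 995020 to 996531, and their ratio to CPM fell with exonic length (log2 slope -0.693 over 10006 genes). Per the submitters' processing notes, the builds were hg38 and GRCh38 and the tools DESeq 1.18.1, HTSeq 0.6.0, HISAT2 2.0.4 and SAMtools 1.3.1, with no role given. Strandedness and the annotation used in counting are not given in the sources used here.

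Groups were taken from sample titles. Counts were tested with edgeR 4.0.16 (TMM, filterByExpr, quasi-likelihood F test) and TPM with limma 3.58.1 (trend) on log2(TPM + 1) for genes with at least 1 TPM in 2 libraries, in R 4.3.3, two-sided, with p-values adjusted by Benjamini-Hochberg over every gene in the fit and called under 0.05. SE of edgeR values came from the F statistic. CPM are of the library total. Scripts were tested on simulated data. Alternatives were DESeq2 1.42.0 and its size factors, no filter, each library left out, other treatments of time, other pseudocounts, the descriptions' groups and a replicate block. The text names all 8 genes, their overlapping neighbours, up to 4 called genes of each list and comparison with the smallest p or, with no test, genes of high level, and the 3 genes most like NR2F1, NR2F2, STAB1 and MRC1, 1 of which is not reported here. CDH5, SPN, CSF1R, VEGFC, RUNX1, MYB, CD33 in suspended cells and the markers given at 0 or beside those at 0 were picked after their values were seen. So were EPCAM, CDH1 and CLDN4 in the vitamin C comparison, which complete the epithelial list. The members and lists were chosen with earlier results of these data known.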

Additional observations from a re-analysis of the deposited data

How the results depend on the processing

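Directions and calls were recomputed under each alternative, and the cause of a shift was not tested unless fewer libraries or genes entered. For vitamin C over the course, 955 genes were called, 1591 with no filter and 20 without a term for time, where 0 members were called in place of 4. Leaving out a library gave 505 to 1209 genes and 3 to 5 members. For hours with vitamin C, 289 genes and 1 member were called, against 712 and 3 with DESeq2, 438 and 3 with no filter, 92 and 0 with ranks of the times and 1814 from 24 to 60 h only. Leaving out a library gave 9 to 680 genes and 0 to 2 members. For hours without vitamin C, 697 genes and 4 members were called, against 1284 genes with DESeq2, 2545 from 24 to 60 h only and 2 members with ranks, and 151 to 1097 genes and 1 to 5 members without single libraries. The difference in slope was called for 0 genes, and for 11 with DESeq2. After re-plating, 3343 genes and 4 members were called, and 894 to 3758 genes and 2 to 5 members without single libraries, 894 and 1404 of them without the 0 h library lacking and with vitamin C. In sorted cells the descriptions gave 156 calls and leaving out a library 0 to 1. With 5 CPM added, 2 members were at least 2-fold lower at 96 than at 60 h in place of 4. With STAB2, at 5 and 0 counts, 6 members were at least 2-fold lower in suspended than in adherent cells.

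Signs turned in the following fits, none of whose main values was called. Hours with vitamin C from 24 to 60 h only turned NR2F2 (-0.36), PROX1 (1.51) and MRC1 (1.04, adjusted p = 0.0286), and ranks turned MRC1 (0.0343). Leaving out single libraries gave slopes with vitamin C of -0.36 to 0.94 for NR2F2, -3.01 to 1.50 for PROX1, -0.26 to 1.04 for MRC1 and -8.24 to 5.64 for PDPN, each turned by the 0 h library with vitamin C, and of -0.49 to 10.1 for STAB2, turned by its 60 h library. Without vitamin C the slope of NR2F2 was -1.52 to 0.53, turned by the 60 h library. The difference in slope was -0.0544 to 2.06 for NR2F2, -2.03 to 0.50 for MRC1 and -2.98 to 10.9 for PDPN (turned by the 0 h library with vitamin C, PDPN also by that at 36 h, at 0.15), -5.42 to 5.16 for STAB2 (24 h with vitamin C), -2.05 to 4.57 for PROX1 (0 h without) and -3.08 to 1.06 for LYVE1 (60 h without). In sorted cells the descriptions turned NR2F1 (-0.40), NR2F2 (0.48) and PDPN (1.60), and PDPN was -1.31 to 0.33 without single libraries, turned by replicate 1 with vitamin C (0.29) and replicate 2 without it (0.33).

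The sorted libraries share replicate numbers, and same-numbered libraries deviated together (r = 0.565). By the descriptions, same-numbered libraries also share the vitamin C condition. Replicate number and that condition cannot be told apart in these 2 pairs. With a replicate block 0 genes were called and 1237 had an unadjusted p under 0.05, against 313 without it. TMM scaling over the 13 libraries shifted log2 ratios of suspended cells by -0.12 at 60 h and by 0.16 between 60 and 96 h. Below about 10 counts, as for PDPN after 0 h, STAB2 and LYVE1 before 60 h without vitamin C, depth limits what could be seen.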
